A study of Mus musculus with 32 samples.

Results

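The comparison described here asks whether the genotype difference between albino and pigmented mice is the same in an eye muscle as in a limb muscle. It uses 16 of the 32 libraries of the series. Albino mice of the strain B6(CG)Tyr(c-2J)/J carry the c-2J allele of Tyr, the gene of tyrosinase, the enzyme that starts melanin synthesis. The series title names their nystagmus, an involuntary oscillation of the eyes, and the pigmented mice are C57BL/6. The groups are 4 albino and 4 C57BL/6 libraries of the extraocular muscles (EOM), which turn the eyeball, and 4 albino and 4 C57BL/6 libraries of tibialis anterior (TA, a muscle of the lower leg). Libraries held 20763187 to 23591364 counts for albino EOM, 18544334 to 24446789 for C57BL/6 EOM, 18996461 to 26425367 for albino TA and 23095793 to 27965207 for C57BL/6 TA. The labels give no age, sex, time of collection or treatment. They do not say whether the libraries of a group come from separate mice, so a p here reflects only the scatter among libraries, which may be technical.

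The members were chosen partly by measured values. Genotype comes from the labels in every library, and 12 of the 16 also take their muscle from the label. The other 4 are labelled albino CN3 (oculomotor neuron samples) 3 and 4 and albino CN6 (abducens neuron samples) 3 and 4. They were placed by 2 genes: Ckm, the muscle creatine kinase, had to exceed 1000 CPM (counts scaled to a common library total), and Myh13, the myosin heavy chain of eye muscles, had to lie above 1000 CPM for EOM or under 100 CPM for TA. The libraries labelled albino CN3 3 and 4 held 5462 and 5320 CPM of Ckm and 3742 and 3765 CPM of Myh13, and serve as albino EOM beside the libraries labelled albino EOM 3 and 4. The pair labelled albino CN6 contained 13330 and 13010 CPM of Ckm and 19.5 and 94.0 CPM of Myh13, the last just inside the limit, and serve as albino TA beside the libraries labelled albino TA 3 and 4. Ckm ran from 4279 to 4826 CPM across C57BL/6 EOM libraries and Myh13 from 4272 to 4980 CPM. Across C57BL/6 TA libraries Ckm ran from 12830 to 13310 CPM and Myh13 from 23.8 to 34.8 CPM. Libraries 1 and 2 of both albino muscle labels, EOM and TA, held at most 0.306 CPM of Ckm and are not used. Ckm and Myh13 are therefore a description and are not tested, and each lead result is also given for the 12 libraries whose own label names the muscle, which leaves 2 albino libraries a muscle.

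Other genes bear on the labels. Nnt, a mitochondrial transhydrogenase known to differ between C57BL/6 substrains, separated the genotypes in every one of the 16 libraries: it held 163, 166, 173 and 142 CPM in the albino EOM libraries (labelled EOM 3, EOM 4, CN3 3 and CN3 4, the order used throughout) against 460 to 498 CPM in C57BL/6 EOM. In TA it held 19.9, 23.5, 20.5 and 20.0 CPM in the albino libraries (labelled TA 3, TA 4, CN6 3 and CN6 4) against 117 to 144 CPM in C57BL/6. The labels do not give the substrain of the pigmented mice. The Tyr allele and substrain therefore cannot be told apart in any genotype difference here. Tyr itself stayed at or below 0.642 CPM everywhere and was too low to test. Myh4, the main fast myosin of limb muscle, ran from 27610 to 36990 CPM in albino TA and from 30970 to 38970 CPM in C57BL/6 TA. Xist did not exceed 0.184 CPM in any library, and the Y-linked Uty was lower in albino than in C57BL/6 mice in both muscles (16.4 to 19.6 against 27.8 to 43.1 CPM in EOM). The summed level of 20 immediate early genes, which respond to handling and stress, stood apart in the libraries labelled albino CN3 4 and CN6 4 (2379 and 1158 CPM, against 279 to 796.5 CPM in the other 6 albino libraries), so counts are also given without those 2.

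Skeletal muscle holds more than fibres. Macrophages and other leukocytes patrol it, fibroblasts lay down the collagen and proteoglycan matrix that links fibres to tendon, and each fibre runs a circadian clock in which activators and repressors of transcription inhibit each other in turn. Eye muscles differ from limb muscles in all of these as well as in their myosins: they are small, constantly active, and rich in connective tissue and resident immune cells. In bulk RNA from such tissue, fewer cells of a type and less RNA per cell cannot be told apart.

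The interaction is the albino difference in EOM minus the albino difference in TA, on the log2 scale. A positive value says that a gene is higher, or less lowered, in albino EOM relative to its own C57BL/6 reference than in albino TA relative to its own. By edgeR's quasi-likelihood test with Benjamini-Hochberg adjustment, 1981 of 15267 genes had an adjusted p under 0.05 (13%), 846 of them positive (5.54%) and 1135 negative (7.43%). Of the 581 called genes with an interaction of at least 2-fold, 533 were negative and 48 positive. Over all genes the median interaction was 0.01. With DESeq2 size factors in place of TMM the split was 525 positive and 1348 negative. The 12 libraries with muscle labels gave 378 positive (2.41%) and 910 negative (5.81%) of 15670 genes, and 1106 of the 1981 genes were called in both. Without the libraries labelled albino CN3 4 and CN6 4 there were 734 positive and 901 negative calls, and without the library labelled albino CN6 4 alone 531 and 837. Without the library labelled albino CN3 3 the positive calls numbered 503. On the 16 libraries labelled EOM or TA, taken as labelled, 33 genes were called. With offsets for GC content and transcript length, chosen after seeing the data, 630 positive and 802 negative calls were made among 14711 genes. Of the 1981 genes, 1085 were still called with these offsets.

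By direction in each muscle, the called genes fall into unequal groups. A muscle counts as higher or lower in albino mice only where its own adjusted p was under 0.05. Over all genes tested this held for 20.9% higher and 18.6% lower in EOM, and for 15.1% higher and 14.8% lower in TA. Positive interactions came mostly from EOM: 514 genes were higher in albino EOM with no call in TA, 186 were lower in albino TA with no call in EOM, and 56 were higher in EOM and lower in TA. Negative interactions came most often from TA: 462 genes were higher in albino TA with no call in EOM, 356 were lower in albino EOM with no call in TA, and 152 were lower in EOM and higher in TA. A further 220 genes moved the same way in both muscles but by unequal amounts, 154 with a negative and 66 with a positive interaction, and 35 passed in neither muscle alone. The difference between muscles rests on the interaction test and not on a call in one muscle alone.

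**Figure D1:**
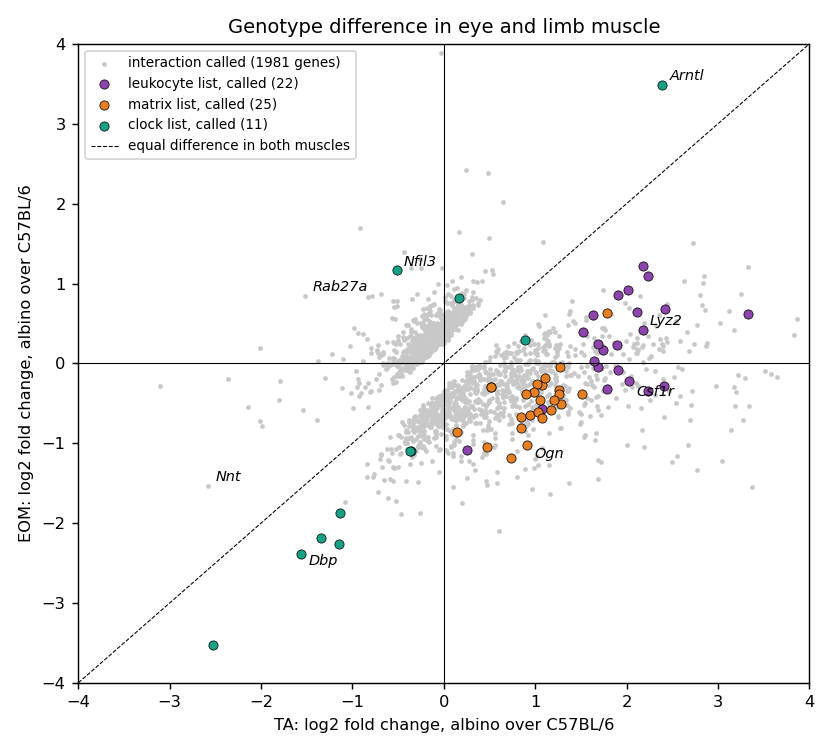
Each point is a gene with a called interaction, placed by its log2 fold change of albino over C57BL/6 in EOM (vertical) and in TA (horizontal), with list members in colour and the dashed line marking an equal difference. Called members of the leukocyte and matrix lists lie to the right of and below the line, and 28 of the 1981 called genes fall outside the plotted range of 4 log2 units.

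The groups also differ in where their genes are expressed. Of the 462 genes higher in albino TA alone, 98.3% had a lower mean level in C57BL/6 TA than in C57BL/6 EOM, against 83.5% of all genes tested. Their median level was 2.31 CPM in C57BL/6 TA and 17.8 CPM in C57BL/6 EOM. For the 152 genes lower in EOM and higher in TA the share was 99.3%, and for the 356 lower in EOM alone 95.8%. In contrast the share was 46.9% for the 514 genes higher in EOM alone. These C57BL/6 levels also enter the fold changes, so the shares are a description. In each of these negative groups nearly every gene is one that C57BL/6 mice express more in eye than in limb muscle.

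Leukocyte genes shared 1 direction of the interaction. All 22 tested members of the leukocyte list had a called negative interaction (7.43% of all genes did), with a median of −1.63 against 0.01 for all genes. In albino TA 21 of the 22 were higher and none was lower (15.1% and 14.8% of all genes were). In albino EOM 7 were higher, 2 lower and 13 not called (20.9% of all genes were higher and 18.6% lower). The median fold change of the list was 1.91 on the log2 scale in TA and 0.23 in EOM. In the 12 libraries with muscle labels 18 were called negative. Summed over the list, albino TA libraries held 426, 328, 388 and 398 CPM against 95.4 to 112.5 CPM in C57BL/6 TA. Albino EOM libraries held 1666, 1293, 1473 and 1451 CPM against 1035 to 1307 CPM in C57BL/6 EOM.

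Csf1r, the receptor for the growth factor on which macrophages depend, held 17.3, 17.2, 15.2 and 19.5 CPM in albino TA against 4.44, 5.37, 3.46 and 3.79 CPM in C57BL/6 TA. In EOM it held 70.3, 65.9, 58.0 and 69.0 CPM in albino mice against 94.9, 79.6, 73.0 and 68.2 CPM in C57BL/6 mice. The genotypes do not overlap in TA and do in EOM. Of all genes tested, 38.2% showed no overlap between genotypes in EOM and 26.4% in TA. Genes named by direction group had to show no overlap in at least 1 muscle, so their separation is a description. The interaction was −2.25 ± 0.18 (log2 ± SE, adjusted p = 1.12e-06), from −0.22 ± 0.12 in EOM and 2.03 ± 0.14 in TA, and −2.185 in the 12 libraries with muscle labels. Adgre1, the macrophage surface protein F4/80, had the interaction −2.69 ± 0.30 (adjusted p = 2.33e-05), with 4.82 ± 0.81 CPM in albino TA against 0.924 ± 0.47 CPM in C57BL/6 TA (SD, n = 4 each). The other genes called in TA alone with the smallest adjusted p, none of them on the list, were Dpep1, a membrane dipeptidase, at −1.28 ± 0.12, Lcp1, the actin-bundling plastin of leukocytes, at −1.69 ± 0.17, and Mpeg1, a pore-forming protein of macrophages, at −2.21 ± 0.23. Mpeg1 ran from 5.74 to 7.08 CPM in albino TA against 1.00 to 1.82 CPM in C57BL/6 TA, and from 13.4 to 18.8 CPM in albino EOM against 16.6 to 23.2 CPM in C57BL/6 EOM. Cd209b, a lectin of macrophages, had −2.67 ± 0.42 and held 1.05 to 1.89 CPM in albino TA against 0.0866 to 0.32 CPM in C57BL/6 TA.

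Lyz2, the lysozyme of macrophages and neutrophils, rose in both muscles. It held 96.7, 77.0, 83.5 and 91.2 CPM in albino TA against 19.7, 18.03, 20.4 and 19.4 CPM in C57BL/6 TA, and 424, 357, 375 and 368 CPM in albino EOM against 318, 273, 323 and 259 CPM in C57BL/6 EOM. Neither pair of groups overlaps. Its log2 fold change was 2.18 ± 0.10 in TA and 0.42 ± 0.09 in EOM, an interaction of −1.76 ± 0.13 (adjusted p = 3.45e-07). In CPM, the albino difference of Lyz2 was 87.5 in EOM and 67.7 in TA, so the order of the muscles depends on the scale. That holds for 9 of the 22 leukocyte genes, whose difference in CPM was higher in EOM, while for 13 it was lower in EOM as on the log2 scale.

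The 22 leukocyte genes did not share a direction in EOM, where 7 were higher, 2 lower and 13 not called (20.9% of all genes were higher and 18.6% lower). The class II molecules H2-Aa, H2-Ab1 and H2-Eb1 and their chaperone Cd74 rose in both muscles, with log2 fold changes from 0.86 to 1.21 in EOM and 1.91 to 2.24 in TA. H2-Ab1 averaged 107 CPM in albino EOM against 47.8 CPM in C57BL/6 EOM, and 34.1 CPM in albino TA against 7.57 CPM in C57BL/6 TA. The complement genes C1qa, C1qb and C1qc rose in TA by 1.68 to 1.89 and were not called in EOM. The 2 members lower in albino EOM are scavenger receptors of macrophages: Cd163 fell by 1.09 on the log2 scale there (42.9 CPM in albino EOM, 93.7 CPM in C57BL/6 EOM) and Mrc1 fell by 0.58. Mrc1 rose by 1.08 in TA, and Cd163 at 0.25 was the one member not called there. Outside the list, Pf4, a chemokine of platelets and macrophages, and Pld4, a lysosomal nuclease of the phospholipase D family, were higher in both muscles, with log2 fold changes of 0.34 and 0.38 in EOM and of 2.24 and 2.19 in TA. F13a1, the A subunit of clotting factor XIII, which macrophages also make, was lower in albino EOM (72.8 to 102 CPM, against 129 to 154 CPM in C57BL/6 EOM). It was higher in albino TA (13.9 to 19.3 CPM, against 4.65 to 6.56 CPM), an interaction of −2.26 ± 0.18 (adjusted p = 1.12e-06). Cpa3, a protease of mast cells, had the interaction −2.82 ± 0.31 (adjusted p = 1.78e-05), with 2.18 to 3.21 CPM in albino TA against 0.322 to 0.69 CPM in C57BL/6 TA.

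Other components of eye muscle were measured beside this rise in TA, and their part in it was not tested. Relative to the level in C57BL/6 EOM, the rise of Csf1r in albino TA amounted to 16.5%, that of Adgre1 to 17.6% and that of Lyz2 to 23.1%. The same measure was 0.429% for the keratin Krt5 of surface epithelium. For Myh15, the slow-tonic myosin of eye muscles, it was 0.178%, though the limit on Myh13 that admitted the CN6-labelled libraries may bear on this value. For markers of neural tissue it varied. It was 10.1% for Snap25, a synaptic protein of neurons, and 25% for Gfap, the filament protein of astrocytes and some Schwann cells. Gfap averaged 0.51 CPM in albino TA and 0.0217 CPM in C57BL/6 TA. For the neuron genes Map2, Nefm and Syt1 the measure was 0.798%, 1.25% and 2.52%, and for Rbfox3 it was 22.9%. The summed level of 18 neuron genes was 25.7, 15.4, 12.2 and 22.3 CPM in albino TA against 11.2 to 13.7 CPM in C57BL/6 TA, and 109 to 299 CPM in albino EOM against 86.6 to 256 CPM in C57BL/6 EOM. Snap25 held 2.84, 0.97, 0 and 3.7 CPM in albino TA and 0 CPM in all 4 C57BL/6 TA libraries. In the same order of libraries Csf1r held 17.3, 17.2, 15.2 and 19.5 CPM in albino TA, and a link between the 2 genes was not tested. Of the neuron list 1 member had a called interaction (13% of all genes did), the RNA-binding protein gene Elavl4. It stood at 0 to 0.151 CPM in albino TA and 0 CPM in C57BL/6 TA. The median TA fold change of the list was 1.28 on the log2 scale. Elavl4 was not called in the 12 libraries with muscle labels (adjusted p = 0.07). Over the whole list of 12 surface epithelium genes, of which 0 were called by edgeR, 0 had an unadjusted p under 0.05, 1 was called by DESeq2 and 0 by limma voom, the summed level was 7.91 to 14.7 CPM in albino TA against 7.29 to 8.4 CPM in C57BL/6 TA. In EOM it ran from 66.7 to 1556 CPM in albino and from 186 to 1251 CPM in C57BL/6 libraries. Of 12 Schwann cell genes 1 was called (13% of all genes were), the cadherin gene Cdh19. It was lower in albino EOM alone (at most 11.9 CPM, against 20.2 to 29.3 CPM in C57BL/6 EOM). Cdh19 was not called in the 12 libraries with muscle labels (adjusted p = 0.1). With the albino groups made of the libraries labelled CN3 and CN6 alone it was not called either (adjusted p = 0.105). The sum of the Schwann cell genes was 103 to 155 CPM in albino TA against 118 to 182 CPM in C57BL/6 TA. Of 8 tested choroid plexus, pituitary and astrocyte genes edgeR and limma voom called 0 and DESeq2 1. Unadjusted p was under 0.05 for 2. In EOM 3 were higher and 1 lower (20.9% and 18.6% of all genes), and in TA 3 and 1 (15.1% and 14.8%). Gh and Prl of the pituitary averaged 3.16 and 0.781 CPM in albino EOM. In albino TA they averaged 0.289 and 0.172 CPM, and in C57BL/6 0 CPM. Ttr averaged 2.45 and 0.436 CPM in albino EOM and TA, against 0.0338 and 0 CPM in C57BL/6.

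**Figure D2:**
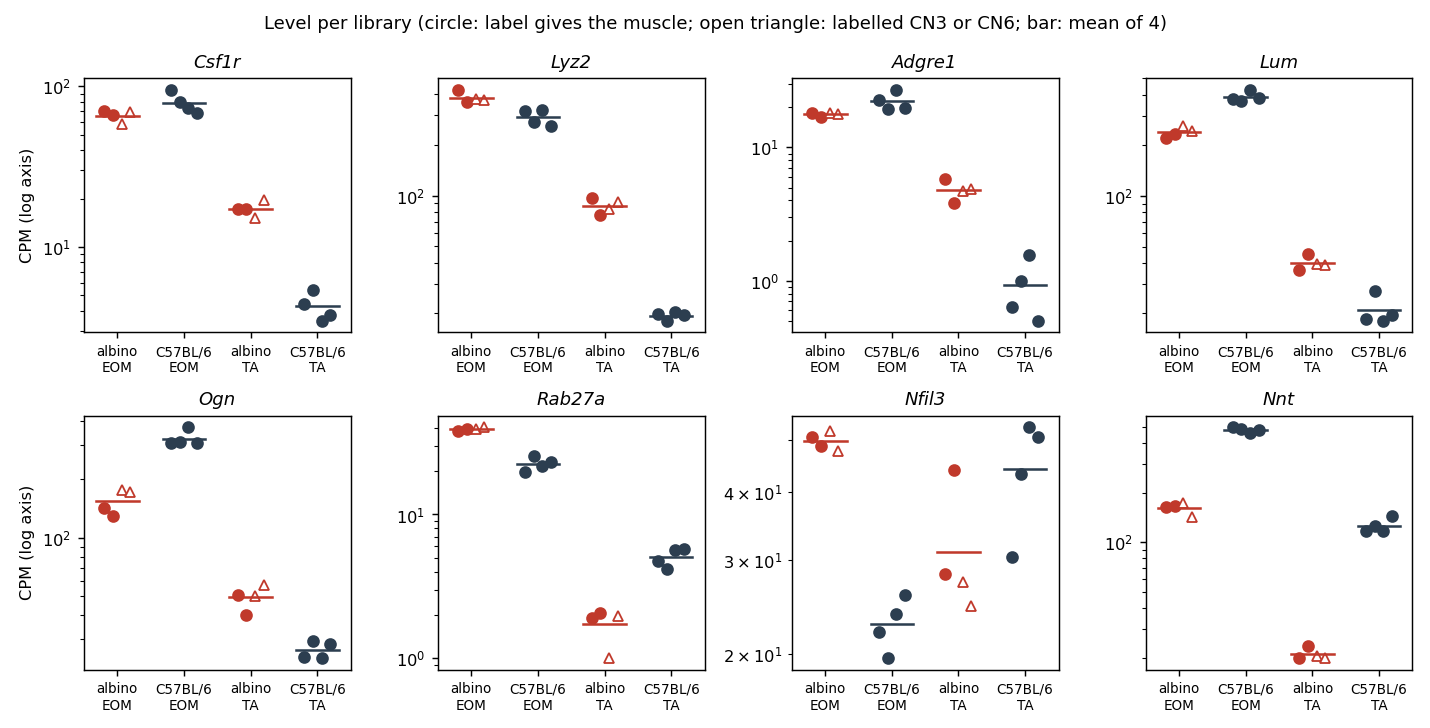
Level of 8 genes in each library, in CPM on a log axis, with the mean of each group as a bar; filled circles are libraries whose label gives the muscle and open triangles those labelled CN3 or CN6. Csf1r, Lyz2 and Adgre1 are separated by genotype in TA, Ogn and Lum in opposite directions in the 2 muscles, and Rab27a is higher in albino EOM and lower in albino TA.

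Matrix genes shared the sign of the interaction but not the pattern behind it. Of 26 genes of tendon and fibroblast matrix, 25 had a called negative interaction (7.43% of all genes did) and none a positive one. Their median was −1.52. In the leukocyte list EOM was mostly not called, whereas here 13 members were lower and 2 higher in albino EOM (medians −0.42 in EOM and 1.03 in TA). Of all genes 18.6% were lower and 20.9% higher in EOM. In albino TA 24 were higher and none lower (15.1% and 14.8% of all genes were). By direction, 11 of the 25 were lower in EOM and higher in TA, 11 were higher in TA alone, 2 were lower in EOM alone and 1 was higher in both. The 12 libraries with muscle labels also gave 25 called members. With the albino groups made of the libraries labelled CN3 and CN6 alone, 11 were called. Summed over the list, albino EOM libraries held 6320, 6564, 6239 and 6863 CPM against 8173 to 9669 CPM in C57BL/6 EOM. Albino TA libraries held 2371, 2357, 1443 and 2269 CPM against 875 to 1257 CPM in C57BL/6 TA, with the library labelled CN6 3 the lowest albino one.

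Small leucine-rich proteoglycans, which bind collagen and set fibril width, had the 3 smallest adjusted p-values of the list. Ogn (osteoglycin) held 142, 129, 176 and 172 CPM in albino EOM against 306, 311, 370 and 307 CPM in C57BL/6 EOM. In TA it held 50.5, 40.0, 50.1 and 57.2 CPM in albino mice against 24.3, 29.5, 24.0 and 28.3 CPM in C57BL/6 mice. The genotypes do not overlap in either muscle and are in opposite order, which gives an interaction of −1.93 ± 0.17 (adjusted p = 4.52e-06). Lum (lumican) had −1.59 ± 0.15 and Dcn (decorin) −1.35 ± 0.14, with log2 fold changes of −0.65 and −0.36 in EOM and of 0.94 and 0.99 in TA. Aspn (asporin), a relative outside the list, fell in EOM alone, with 39.0 to 52.6 CPM in albino EOM against 96.4 to 119 CPM in C57BL/6 EOM and an interaction of −1.34 ± 0.14 (adjusted p = 1.14e-05).

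Collagens followed in the same sense. Col14a1, a collagen on the surface of fibrils, had −1.92 ± 0.29 (50.8 CPM in albino EOM and 119 CPM in C57BL/6 EOM, 9.56 CPM in albino TA and 5.87 CPM in C57BL/6 TA). Col3a1 and Col1a1, chains of fibrillar collagen, were not called in EOM and rose by 1.52 and 1.27 in TA. Postn (periostin) and Lox, the enzyme that crosslinks collagen, fell by 0.86 and 1.04 in EOM and were not called in TA. Fbn1 (fibrillin 1) rose in both, by 0.63 in EOM and 1.79 in TA. The tendon factor Scx was the one member without a called interaction (−0.13 ± 0.36, adjusted p = 0.858), at 5.77 CPM in albino EOM against 3.55 CPM in C57BL/6 EOM and 4.49 CPM in albino TA against 2.44 CPM in C57BL/6 TA. Itgbl1, a secreted integrin-like protein outside the list, had −2.03 ± 0.19 (adjusted p = 4.52e-06), at 24.3 to 27.4 CPM in albino EOM against 45.03 to 57.4 CPM in C57BL/6 EOM.

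Of 20 genes of growth factor signalling in muscle 5 were negative (7.43% of all genes were) and none positive, with 7 negative without albino CN6 3, 5 without albino CN6 4 or C57BL/6 TA 2, 4 without albino CN3 3, albino CN3 4 or C57BL/6 EOM 3, and 2 or 3 without any one of the others. Fstl1, a follistatin-like glycoprotein, had −1.33 ± 0.18 (adjusted p = 0.000176; 288 CPM in albino EOM and 407 CPM in C57BL/6 EOM, 58.2 CPM in albino TA and 32.1 CPM in C57BL/6 TA). Fst (follistatin, which binds activin and myostatin) rose by 1.01 in TA alone, and Tgfb2, a transforming growth factor, was lower in albino EOM alone (17.3 to 25.7 CPM, against 27.5 to 31.0 CPM in C57BL/6 EOM). Mstn, the gene of myostatin, which restrains muscle growth, fell in both muscles (−0.75 ± 0.14 in EOM and −0.94 ± 0.14 in TA), and its interaction of 0.19 ± 0.19 was not called (adjusted p = 0.554). Igf1 at −0.83 ± 0.43 was not called either (adjusted p = 0.223).

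**Figure D3:**
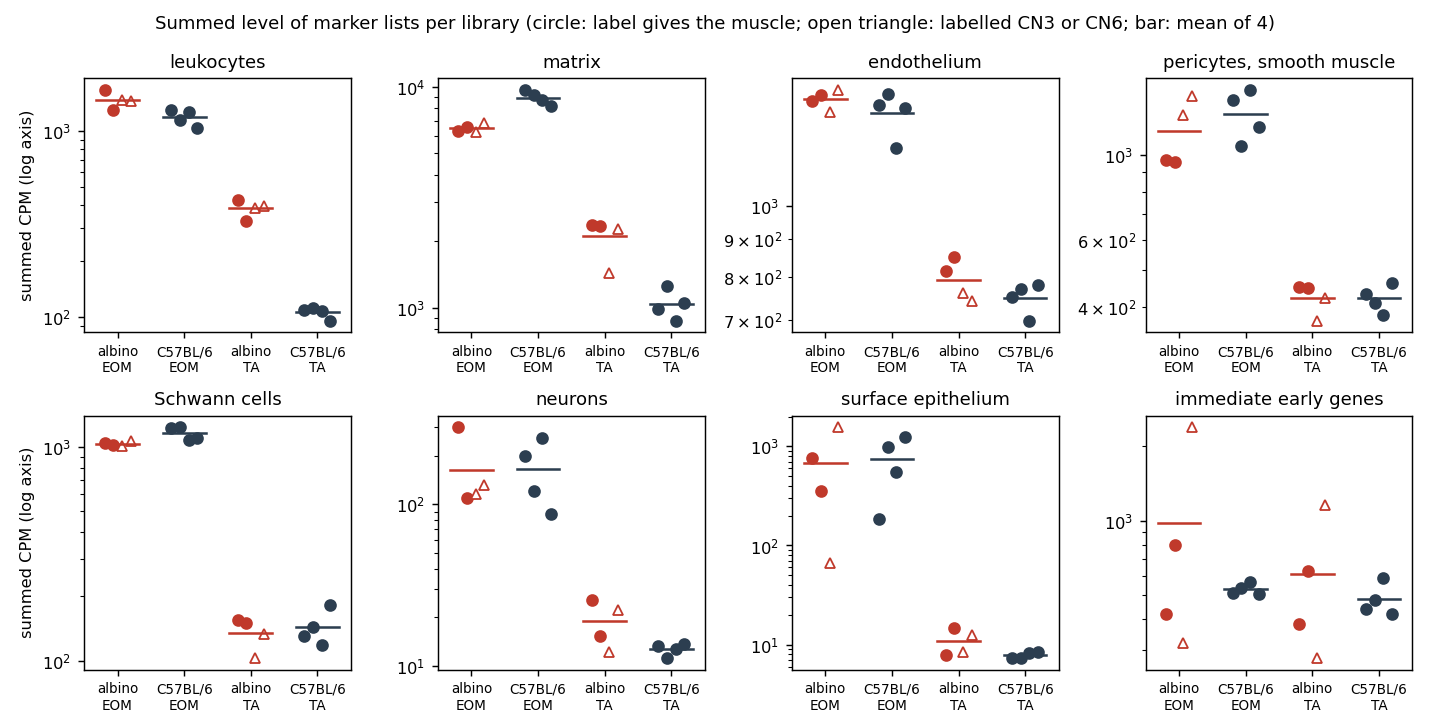
Summed CPM of 8 marker lists in each library on a log axis, with the group mean as a bar and open triangles for libraries labelled CN3 or CN6. Leukocyte sums are higher in albino TA (328 to 426 CPM against 95.4 to 112.5 CPM), matrix sums are lower in albino EOM and higher in albino TA, and immediate early genes stand apart in the libraries labelled albino CN3 4 and CN6 4.

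Clock genes differed between genotypes in both muscles, and 7 of the 11 with a called interaction fell further in albino EOM than in albino TA. Of 19 clock genes 8 had a called negative and 3 a called positive interaction (7.43% and 5.54% of all genes did). The 12 libraries with muscle labels also gave 8 and 3. In EOM 5 were higher and 12 lower in albino mice (20.9% and 18.6% of all genes were). In TA 3 were higher and 12 lower (15.1% and 14.8% of all genes were). Among the called members 7 were lower in both muscles, 2 higher in both, 1 higher in EOM alone and 1 higher in EOM and lower in TA. The time of day at which tissues were taken is not given, so genotype and time of collection cannot be told apart. With offsets for GC content and length, chosen after seeing the data, 6 negative and 3 positive calls were made.

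To show the 2 kinds of control that clock genes carry, 4 promoter windows are printed, from 250 bases before to 50 bases after the start of the transcript, from RefSeq on GRCm38.p6. Windows were found for 16 of the 19 genes (21 windows), and both strands were searched for the E-box CACGTG, to which the activator pair of Clock and Arntl binds, and for the core GTAGGTCA of the element bound by the repressing Nr1d receptors. The core stands in 0.621% of all 32851 windows and in 2 of the 21 clock windows, those of Arntl and Nfil3. The E-box stands in 7.15% of all windows and in 6 of the 21 clock windows, of 5 genes. Of these genes Tef and Bhlhe41 had a called interaction and Per1, Cry1 and Ciart did not. Also searched for were the D-box TTANGTAA (2.32% of all windows and 1 clock window, of Per3) and the PU.1 site GAGGAAGT (3.2% and 1 clock window, of Nr1d2). Capitals mark the receptor core in the first 2 sequences (in Nfil3 on the opposite strand) and the E-box in the other 2.
Arntl chr7:113207261-113207560, plus strand: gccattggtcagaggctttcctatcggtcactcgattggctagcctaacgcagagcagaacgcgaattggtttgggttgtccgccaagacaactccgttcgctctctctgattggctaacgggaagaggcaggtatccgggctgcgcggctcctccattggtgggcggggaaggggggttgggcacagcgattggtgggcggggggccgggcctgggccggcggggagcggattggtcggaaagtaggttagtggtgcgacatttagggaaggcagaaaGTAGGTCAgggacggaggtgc
Nfil3 chr13:52980990-52981289, minus strand: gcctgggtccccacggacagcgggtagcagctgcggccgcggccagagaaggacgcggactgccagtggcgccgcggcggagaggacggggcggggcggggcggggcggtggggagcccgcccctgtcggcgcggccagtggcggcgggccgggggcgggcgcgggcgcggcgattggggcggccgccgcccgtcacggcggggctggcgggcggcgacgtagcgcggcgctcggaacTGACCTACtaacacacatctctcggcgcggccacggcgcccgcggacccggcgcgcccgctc
Tef chr15:81802423-81802722, plus strand: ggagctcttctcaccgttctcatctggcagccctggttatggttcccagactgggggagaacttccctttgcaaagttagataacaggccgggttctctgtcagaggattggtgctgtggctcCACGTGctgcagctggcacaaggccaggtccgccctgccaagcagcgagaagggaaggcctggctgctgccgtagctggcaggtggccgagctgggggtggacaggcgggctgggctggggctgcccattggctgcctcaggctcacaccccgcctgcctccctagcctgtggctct
Bhlhe41 chr6:145865371-145865670, minus strand: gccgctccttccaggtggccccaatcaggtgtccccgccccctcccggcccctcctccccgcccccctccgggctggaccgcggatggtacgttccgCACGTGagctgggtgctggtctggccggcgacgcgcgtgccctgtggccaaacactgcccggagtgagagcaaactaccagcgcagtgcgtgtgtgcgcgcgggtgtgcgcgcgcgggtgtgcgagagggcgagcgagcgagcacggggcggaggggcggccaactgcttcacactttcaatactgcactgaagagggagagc

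Both genes with the receptor core had positive interactions, and a link between the core and the interaction was not tested. Arntl (BMAL1), the activator of the loop, held 52.7, 48.1, 61.8 and 55.0 CPM in albino EOM against 4.46, 6.9, 3.79 and 4.96 CPM in C57BL/6 EOM. Its TA levels were 42.0, 37.2, 46.8 and 38.5 CPM in albino mice against 8.32, 6.94, 8.66 and 7.54 CPM in C57BL/6 mice. It is thus far higher in every albino library of both muscles, by 3.48 ± 0.15 in EOM and 2.39 ± 0.14 in TA on the log2 scale, and the interaction was 1.09 ± 0.20 (adjusted p = 0.00168).

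Nfil3, a repressor that competes with Dbp, Tef and Hlf for the same sites, was the clock gene with opposite directions. It held 50.7, 48.7, 52.0 and 47.6 CPM in albino EOM against 22.0, 19.7, 23.7 and 25.7 CPM in C57BL/6 EOM, with no overlap. In TA it held 28.2, 44.0, 27.3 and 24.6 CPM in albino mice against 30.3, 43.2, 52.8 and 50.7 CPM in C57BL/6 mice, where the library labelled albino TA 4 overlaps C57BL/6. The interaction was 1.68 ± 0.25 (adjusted p = 0.000504), and 1.47 in the 12 libraries with muscle labels (adjusted p = 0.0215).

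Tef, Bhlhe41, Hlf, Dbp, Per2, Per3 and Nr1d2 fell in both muscles, and further in EOM. Tef, a transcription factor of the output of the loop and one of the 2 genes with both an E-box in its window and a called interaction, held 192, 196, 217 and 195 CPM in albino EOM against 446, 417, 441 and 462 CPM in C57BL/6 EOM. Its levels in TA were 397, 445, 463 and 358 CPM in albino mice against 548, 516, 547 and 545 CPM in C57BL/6 mice. No library overlaps, and the interaction was −0.73 ± 0.10 (adjusted p = 0.000137). Bhlhe41, a repressor of the loop, had −0.74 ± 0.11 (25.8 CPM in albino EOM and 56.9 CPM in C57BL/6 EOM, 64.0 CPM in albino TA and 82.4 CPM in C57BL/6 TA). Hlf and Dbp, relatives of Tef, had −1.11 ± 0.19 and −0.82 ± 0.18. The period genes Per2 and Per3 had −0.996 ± 0.30 and −0.84 ± 0.22, and the receptor gene Nr1d2 had −0.74 ± 0.14.

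Clock genes were not uniform. Nr1d1, the partner of Nr1d2, was higher in albino mice, by 0.30 ± 0.07 in EOM and 0.88 ± 0.07 in TA, so its negative interaction of −0.59 ± 0.10 (adjusted p = 0.00115) is a smaller rise in EOM. Per1 fell by 1.68 in EOM and 1.76 in TA, with an interaction of 0.08 ± 0.73. Cry2 fell by 0.65 and 0.56, and Clock itself was called in neither muscle. Npas2, a relative of Clock, rose by 2.22 in EOM and 3.16 in TA, and its interaction of −0.94 ± 0.43 was not called (adjusted p = 0.159).

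**Figure D4:**
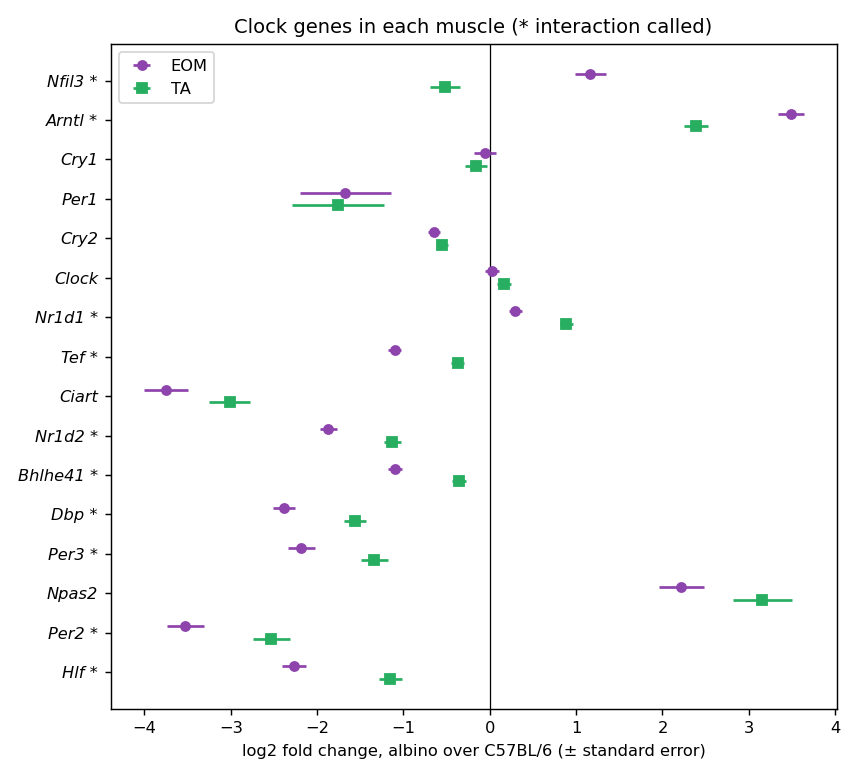
Log2 fold change of albino over C57BL/6 for the 16 clock genes named in the text, in EOM (circles) and TA (squares), with standard errors and an asterisk for a called interaction. For Per2, Per3, Dbp, Tef, Hlf, Nr1d2 and Bhlhe41 the EOM value lies further below 0 than the TA value, while Nfil3 lies above 0 in EOM and below 0 in TA.

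Among the 56 genes higher in albino EOM and lower in albino TA, the smallest adjusted p was that of Rab27a, the small GTPase that carries melanosomes and other secretory granules to the cell edge. It held 38.4, 39.2, 39.6 and 40.4 CPM in albino EOM against 19.7, 25.6, 21.6 and 23.0 CPM in C57BL/6 EOM. TA levels were 1.89, 2.06, 1.00 and 1.98 CPM in albino mice against 4.72, 4.14, 5.63 and 5.79 CPM in C57BL/6 mice. The groups do not overlap in either muscle (38.2% of all genes do not in EOM and 26.4% in TA), and no overlap in at least 1 muscle was a condition for naming. The interaction was 2.37 ± 0.22 (adjusted p = 4.52e-06), and 2.19 in the 12 libraries with muscle labels (adjusted p = 1.49e-05). Among 12 tested genes of melanin and pigment granules the other call was Gpnmb (13% of all genes were called). Gpnmb, a glycoprotein of melanosomes and of macrophages, had −1.94 ± 0.31 (3.74 to 7.77 CPM in albino TA against 1.04 to 1.86 CPM in C57BL/6 TA).

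Nnt was lower in albino mice in both muscles, at the levels given above. On the log2 scale it fell by 1.54 ± 0.09 in EOM and by 2.58 ± 0.09 in TA, which is a positive interaction of 1.05 ± 0.12 (adjusted p = 3.14e-05). In CPM the order is the reverse, since the means were 161 CPM in albino EOM against 481 CPM in C57BL/6 EOM, and 21.0 CPM in albino TA against 126 CPM in C57BL/6 TA. Mmrn1, a protein of platelets and endothelium deleted in some C57BL/6 substrains, was the other called gene of 7 tested on the strain list. Of all genes 13% were called. It held 4.96 to 12.1 CPM in albino EOM against 24.7 to 33.1 CPM in C57BL/6 EOM, and was not called in TA, where albino libraries held 0.684 to 3.03 CPM against 0.693 to 1.97 CPM in C57BL/6 TA.

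Other genes named by the smallest adjusted p in each direction group are single genes. Zfp503, a zinc finger repressor, was lower in albino TA alone (6.77 to 7.95 CPM, against 17.9 to 23.0 CPM in C57BL/6 TA), with 5.83 to 8.53 CPM in albino EOM against 6.59 to 9.44 CPM in C57BL/6 EOM and an interaction of 1.403 ± 0.19 (adjusted p = 0.00012). Asb11, an adaptor of a ubiquitin ligase, rose in EOM by 0.20 ± 0.07 and fell in TA by 0.79 ± 0.07. Its level was 114 to 131 CPM in albino TA against 192 to 223 CPM in C57BL/6 TA. Rbm20, a splicing factor of titin, had 0.77 ± 0.09 (56.0 to 63.0 CPM in albino EOM against 40.8 to 44.0 CPM in C57BL/6 EOM). Frat1, an inhibitor of the kinase that restrains Wnt signalling, had 1.67 ± 0.24 and opposite directions. Eda2r, a receptor of the tumour necrosis factor family, was lower in albino EOM alone (9.32 to 15.0 CPM, against 27.7 to 32.4 CPM in C57BL/6 EOM), with −1.496 ± 0.17. Entpd1 (CD39, an enzyme that breaks down extracellular ATP) and Camsap2, a protein of microtubule ends, were lower in albino EOM alone as well, at −1.03 ± 0.13 and −0.74 ± 0.10. Lower in albino TA alone were Ip6k3, an inositol phosphate kinase, Dnajc21, a co-chaperone, and Ybx3, a cold-shock domain protein, with interactions from 0.63 to 0.85. Ybx3 ran from 1003 to 1249 CPM in albino TA against 1650 to 1832 CPM in C57BL/6 TA, and from 410 to 462 CPM in albino EOM against 427 to 495 CPM in C57BL/6 EOM. Tecr, a reductase of very long chain fatty acid synthesis, was higher in albino EOM, by 0.38, and fell by 0.20 in albino TA. Mif4gd, Rab24, Ptges3l and Lrrc38 were higher in albino EOM alone, with interactions from 0.65 to 0.78.

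Among lists with mostly positive calls, cytosolic ribosomal protein genes had the highest share. Of 37 cytosolic ribosomal protein genes 23 had a called positive interaction (5.54% of all genes did) and none a negative one, with medians of 0.55 in EOM and 0.17 in TA. Rpl13, for one, held 246 to 287 CPM in albino EOM against 160 to 190 CPM in C57BL/6 EOM. In TA it ran from 158 to 216 CPM in albino libraries against 161 to 182 CPM in C57BL/6 ones. Of 44 nuclear-encoded respiratory chain genes 8 were called positive and none negative. Ndufa3, of complex I, had 0.47 ± 0.11 (adjusted p = 0.00666), and Cox5a and Cox6b1, of complex IV, had 0.37 ± 0.10 and 0.36 ± 0.10. In the ribosomal list Rpl24 had 0.46 ± 0.10. Ribosomal protein transcripts are short, and the median interaction over all genes moved with length, with 0.19 for the shortest of 4 equal bins and −0.22 for the longest, and with GC content, with −0.11 for the lowest of 4 bins and 0.11 for the highest. With offsets for both, 2 ribosomal and 1 respiratory chain gene were called, against 24 matrix and 21 leukocyte genes. In the 12 libraries with muscle labels the ribosomal count was 5 and the respiratory chain count 7, and limma voom called 28 and 19. Without 1 library the ribosomal count ran from 12 to 30. It was 12 without albino EOM 3, 13 without albino CN6 4, 14 without albino CN3 3, and 15 without albino TA 4, C57BL/6 EOM 3 or C57BL/6 TA 2. The respiratory chain count ran from 2, without albino CN6 4 or C57BL/6 TA 2, to 20, without albino CN6 3. It was 19 without albino CN3 4, and 3 to 5 without any one of the others except C57BL/6 EOM 4 (11) and C57BL/6 TA 4 (7). Of 20 genes of fatty acid use 1 was positive and 1 negative (5.54% and 7.43% of all genes were). They are the enoyl-CoA hydratase gene Echs1 and Angptl4, an inhibitor of lipoprotein lipase that rose by 1.502 in EOM and 2.72 in TA. Neither was called in the 12 libraries with muscle labels.

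Of 18 fast fibre genes 5 were positive (5.54% of all genes were) and none negative. The count was 2 in the 12 libraries with muscle labels, 1 with the offsets for GC content and length, and from 3 to 7 when 1 library was left out. It was 7 without albino CN6 3, and 3 without albino CN3 3, albino TA 4, albino CN6 4, C57BL/6 EOM 2, C57BL/6 TA 1 or C57BL/6 TA 3. They are the fast troponins Tnnc2, Tnnt3 and Tnni2, the calcium buffer Pvalb (parvalbumin) and the fast actinin Actn3, with interactions from 0.39 to 0.54. Tnnc2 held 6133, 5882, 6022 and 5558 CPM in albino EOM against 4030 to 4518 CPM in C57BL/6 EOM. In TA it ran from 8863 to 10940 CPM in albino libraries against 10100 to 11190 CPM in C57BL/6 ones. With the offsets for GC content and length its adjusted p was 0.0942. The fast myosins Myh1, Myh2 and Myh4 were not called, at −0.24 ± 0.16, −0.45 ± 0.25 and −0.23 ± 0.16. Of 14 slow fibre genes edgeR, DESeq2 and limma voom each called 0, and 0 had an unadjusted p under 0.05. Of 9 tested eye-muscle and developmental genes each tool called 0 and 1 had an unadjusted p under 0.05, the slow-tonic myosin gene Myh15 (adjusted p = 0.0815). Myh15 held 1049, 1182, 964 and 1033 CPM in albino EOM against 2045, 2030, 2041 and 1618 CPM in C57BL/6 EOM. In TA it held 0.227, 0.0404, 1.47 and 13.7 CPM in albino libraries against 0.16 to 0.679 CPM in C57BL/6 ones, and the library labelled CN6 4, which also had the highest Myh13, is the high one. The interaction of Myh15 was negative in the 16 libraries and positive in the 12 with muscle labels (adjusted p = 0.472). With the albino groups made of the libraries labelled CN3 and CN6 alone it was called negative (adjusted p = 0.0313). In EOM its genotypes do not overlap (38.2% of all genes do not), while its EOM difference was not called (adjusted p = 0.34).

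**Figure D5:**
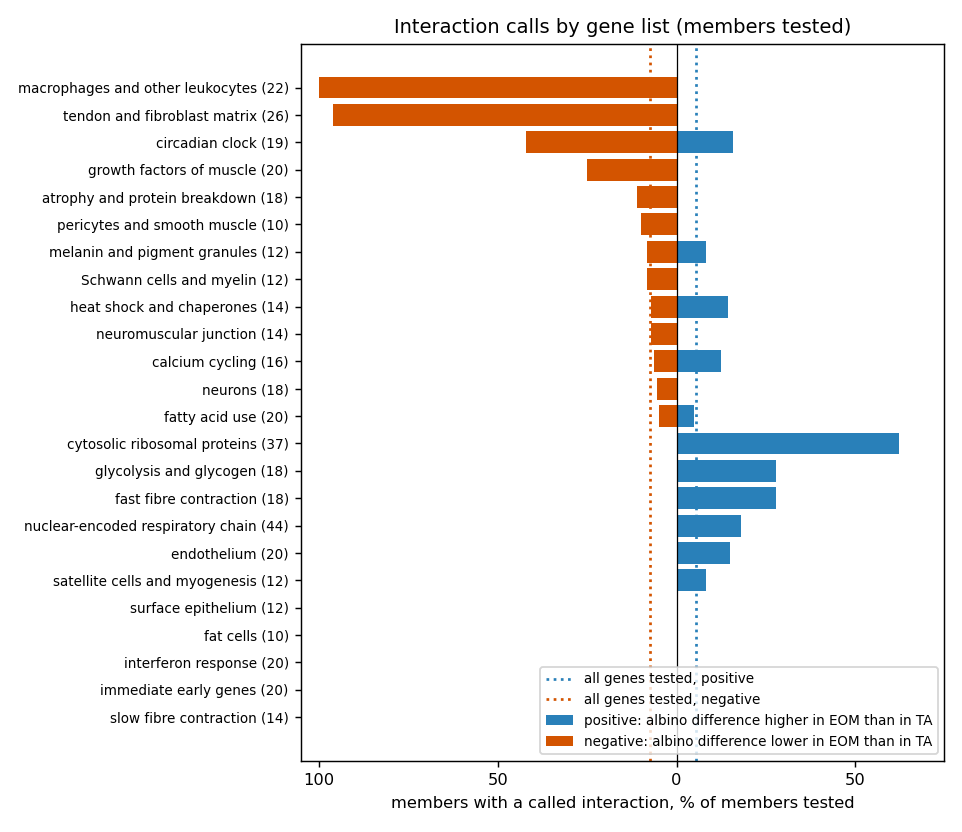
Share of each list's tested members with a called interaction, for 24 of the 30 lists; bars to the left are negative, bars to the right positive, and dotted lines give the shares over all genes tested (7.43% and 5.54%). Leukocyte and matrix genes are nearly all on the left and ribosomal protein genes on the right.

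Of 18 glycolysis and glycogen genes 5 were also positive (5.54% of all genes were) and none negative. They include Ldha, the muscle lactate dehydrogenase, at 0.49 ± 0.11 (1313 to 1370 CPM in albino EOM against 936 to 1100 CPM in C57BL/6 EOM). Fbp2, the muscle fructose bisphosphatase, was higher in albino EOM alone, and Phka1, a subunit of phosphorylase kinase, was lower in albino TA alone (934 to 1191 CPM, against 1360 to 1612 CPM in C57BL/6 TA). The count was 1 in the 12 libraries with muscle labels, 3 with the offsets, and 2 to 6 when 1 library was left out. It was 2 without C57BL/6 EOM 3, and 3 without albino EOM 3, albino EOM 4, albino CN3 3, albino CN6 4, C57BL/6 EOM 2 or C57BL/6 TA 1. Of 18 atrophy and protein breakdown genes 2 were negative (7.43% of all genes were) and 16 not called. In TA 3 of the list were higher and 4 lower (15.1% and 14.8% of all genes were). Fbxo32 (atrogin-1), a ubiquitin ligase of muscle wasting, rose in TA alone. It held 799, 879, 684 and 646 CPM in albino TA against 318, 306, 497 and 379 CPM in C57BL/6 TA. Its interaction was −0.83 ± 0.19 (adjusted p = 0.00917). Foxo3, a transcription factor that induces Fbxo32, fell in EOM alone (9.84 to 13.8 CPM in albino EOM against 22.8 to 25.3 CPM in C57BL/6 EOM). In the 12 libraries with muscle labels the adjusted p was 0.0497 for Fbxo32 and 0.00524 for Foxo3. With the albino groups made of the libraries labelled CN3 and CN6 alone it was 0.093 and 0.0753. Over all genes tested 13% had a called interaction, 5.54% positive and 7.43% negative, which is the share to set beside each of the next lists. Of 14 neuromuscular junction genes 1 was called, Utrn (utrophin), at −0.83 ± 0.14. Orai1, the pore of store-operated calcium entry, was higher in albino EOM alone (38.4 to 49.99 CPM, against 23.7 to 30.8 CPM in C57BL/6 EOM) with 0.91 ± 0.14. Of 16 calcium cycling genes, Jph2 (junctophilin 2) was also positive and the calcium pump gene Atp2b1 negative. Of 14 heat shock genes the mitochondrial chaperones Hspe1 and Hspd1 were positive and Hspb7, a small heat shock protein, negative at −0.81 ± 0.20. Of 12 tested genes of satellite cells and myogenesis 1 was called, the myogenic factor gene Myf6, at 0.39 ± 0.13 (adjusted p = 0.0485). In the 12 libraries with muscle labels Jph2, Atp2b1, Hspe1, Hspd1 and Myf6 were not called (adjusted p = 0.0629 to 0.212). Among 20 endothelial genes 3 were positive, Egfl7, Esam and Ly6c1 (5.54% of all genes were), and none negative. With the offsets for GC content and length their adjusted p-values were 0.241, 0.168 and 0.102, and in the 12 libraries with muscle labels 0.0387, 0.148 and 0.0717. The count was 1 without albino TA 3, C57BL/6 EOM 2 or C57BL/6 TA 4. Among 10 pericyte and smooth muscle genes Rgs5 was negative (81.9 to 112 CPM in albino EOM against 152 to 189 CPM in C57BL/6 EOM). Of 20 interferon response genes edgeR and DESeq2 called 0 and limma voom 2, and 4 had an unadjusted p under 0.05, while of 20 immediate early genes each tool called 0 and 0 had an unadjusted p under 0.05.

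Several of the largest fitted interactions rest on a group at or near 0 counts, and for these the levels are given without a fold. Igfbp2, a binding protein of insulin-like growth factors, held 0.303, 0.162, 0 and 0.336 CPM in albino TA and 0 CPM in all 4 C57BL/6 TA libraries, with 7.71 to 21.1 CPM in albino EOM and 9.37 to 15.0 CPM in C57BL/6 EOM. S100a9, a neutrophil protein, held 1.74, 1.78, 1.05 and 0.672 CPM in albino TA against 0, 0.153, 0 and 0 CPM in C57BL/6 TA. Vdr, the vitamin D receptor, held 8.99 to 11.1 CPM in albino EOM against 13.8 to 15.2 CPM in C57BL/6 EOM, and at most 0.252 CPM in any TA library. Hoxc10, a positional gene of the hind limb, held 82.0 to 95.5 CPM in albino TA and 86.2 to 98.6 CPM in C57BL/6 TA. In EOM it held 0.848, 0.433, 0.185 and 0.187 CPM in albino libraries against 0, 0, 0 and 0.0917 CPM in C57BL/6 ones. Amhr2 and Cyp4f39, also genes of TA here, held 0.674 to 0.89 and 0.187 to 1.27 CPM in albino EOM against at most 0.286 and 0.174 CPM in C57BL/6 EOM. The EOM difference of Hoxc10 was 0.42% of its C57BL/6 TA level, that of Cyp4f39 1.54% and that of Amhr2 6.28%.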

How the data were processed

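RNA from eye muscle, limb muscle and 2 brainstem nuclei was sequenced in 32 libraries. The authors deposited 1 table of raw counts for 24421 gene symbols, which is not normalized. Per the submitters' processing notes, the tools were HISAT2 2.1.0 on mm10, featureCounts, edgeR, Trimmomatic 0.33 and FastQC. No strand setting is named, so a gene and an antisense neighbour may share reads. Date-like names occur 27 times, with up to 0.309% of the counts of a library.

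Here R 4.3.3 with edgeR 4.0.16 was used. The 16 libraries, chosen as the report states, passed filterByExpr and TMM scaling, and a robust quasi-likelihood F test of a model with 4 group means gave the interaction and the difference in each muscle. P-values were adjusted by Benjamini-Hochberg over 15267 genes and called under 0.05. CPM are counts over the deposited library totals, and standard errors come from the F statistic. Summed levels and shares of genes are given with no interval. The other 16 columns of per-sample values were not used in the fit.

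The members, the 30 gene lists (505 genes) and the named genes were chosen with earlier results of these data known. Named are, for each direction group, the 4 genes with the smallest adjusted p with a mean of at least 5 CPM and no overlap in at least 1 muscle, the 6 largest interactions each way, up to 3 members of each list, and genes that check the labels. List members under this rule that were not called are for the most part left out. Other members of these lists are named beside them, chosen after their values were seen. Model-number symbols are not named, and 1 clock and 1 ribosomal gene are not reported here. Genes whose groups lie at or near 0 are given as levels.

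No 2 libraries of a group agreed within sampling noise. Tested on simulated data drawn from these libraries (14793 genes), the fit recovered 19.4% of genes changed 1.5-fold, 61.2% of those changed 2-fold and 65.1% of those changed 4-fold, with 2 false calls. Alternatives were DESeq2 1.42.0, limma 3.58.1 voom with quality weights, DESeq2 size factors and upper quartile factors, no filter and a filter on CPM, the libraries as labelled, those with and those without a muscle label, a term for that label, a Y-linked covariate, a replicate block, and each library left out. Offsets for GC content and length (natural splines, 5 degrees of freedom each, 14711 genes with annotation), the block within label kind and the fit without 2 libraries were chosen after seeing the data.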

Additional observations from a re-analysis of the deposited data

Results flagged for a closer look

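The genotype difference itself differed between EOM and TA for 1981 genes, by the interaction term of edgeR's quasi-likelihood test. This is the comparison the report describes.

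Within groups of 4 libraries, 1 library stood apart from the other 3 in 38 of 508 group and gene (or list) combinations. Chance alone gives about 5% of groups if values are normally distributed, which does not hold near 0 counts. There 1 library with a few reads beside 3 at 0 always stands apart, as for Hoxc10 in C57BL/6 EOM and S100a9, Vdr and Gfap in C57BL/6 TA. The 38 and the 5% are therefore not directly comparable. Among albino libraries with CN labels, albino CN6 4 was high for Myh13 (94 CPM), Myh15 (13.7 CPM), Igf1 (18.7 CPM) and Cd209b (1.891 CPM) and low for Cox5a (474.6 CPM) and Rpl24 (199.4 CPM) in TA, and albino CN6 3 was low for the matrix sum (1443 CPM), Col1a1 (45.4 CPM) and Rab27a (1 CPM). Albino CN3 4 was high for Npas2 (12.2 CPM) and albino CN3 3 for Tef (217 CPM) in EOM. Among albino libraries with muscle labels, albino EOM 4 was low for Dcn (1671 CPM) and Zfp503 (5.83 CPM) and high for Fbn1 (191 CPM) and Orai1 (49.99 CPM). Albino EOM 3 was low for Uty (16.4 CPM) and Xist (0 CPM) and high for Snap25 (56.89 CPM) and the neuron sum (298.7 CPM), and albino TA 4 was high for Ciart (3.15 CPM) and Mstn (42.5 CPM). In C57BL/6 EOM, library 1 was high for Itgbl1 (57.4 CPM) and Cd209b (14.11 CPM), library 3 was high for Ogn (370 CPM) and Dpep1 (150.2 CPM) and low for Cox5a (647.5 CPM), and library 4 was low for Myh15 (1618 CPM) and Postn (238 CPM) and high for Hoxc10 (0.0917 CPM) and Xist (0.184 CPM). In C57BL/6 TA, library 2 was high for Lum (27.2 CPM), S100a9 (0.153 CPM) and Vdr (0.0767 CPM) and low for Tef (516 CPM), library 3 was high for Gfap (0.0866 CPM) and low for Echs1 (146 CPM), and library 1 was high for Xist (0.07998 CPM) and low for Angptl4 (0.6398 CPM).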

How the results depend on the processing

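Against 1981 called genes (846 positive, 1135 negative), the 12 libraries with muscle labels gave 1288 (378 positive), the albino libraries labelled CN3 and CN6 alone 645 (187 and 458), and the 16 libraries as labelled 33 (2 and 31), where 1 of 25 matrix and 2 of 22 leukocyte genes were called. With the CN-labelled libraries alone 11 matrix genes were called. DESeq2 size factors gave 525 positive calls, and the DESeq2 Wald test 1715 negative ones. Offsets for GC content and length gave 1432 calls (630 positive), and 1085 of the 1981 genes were still called. Before offsets, the median albino difference in EOM ran from −0.299 in the lowest to 0.31 in the highest of 4 GC bins. It ran from 0.335 in the shortest to −0.288 in the longest of 4 length bins. In TA these medians ran from −0.182 to 0.22 and from 0.152 to −0.053. As labelled, the interaction turned positive for Tef (0.043), Bhlhe41 (0.275) and Atp2b1 (0.161), none of them called there. Leaving out 1 library gave 1368 to 2464 calls, 503 to 1091 positive and 837 to 1373 negative, with 22 to 25 matrix and 19 to 22 leukocyte genes. The lowest total came without albino CN6 4 and the highest without albino CN6 3. A replicate block on the label numbers gave 2386 calls. Same-numbered C57BL/6 libraries of EOM and TA correlated at −0.003 to 0.095 in their deviations, so the numbers alone do not pair the libraries. Within label kind albino pairs correlated at 0.132 to 0.224, and that block gave 3376 calls, 1666 positive and 1710 negative, with 32 ribosomal and 28 respiratory chain genes positive. The causes were not tested beyond what the settings themselves change. At this depth and with 4 libraries a group, fewer than 1 in 5 simulated 1.5-fold interactions were recovered, so a gene that was not called is not shown to be equal in both muscles.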
